A study of Mus musculus with 8 samples.

Results

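The TRAV6-5 and TRAV6-6 genes encode closely related variable (V) segments of the mouse T cell receptor α chain (TRA). Their usage was measured in CD8+ T cells of thymus, spleen and tumor by single-cell TCR sequencing with the Parse Evercode TCR method. Members were all cells without a multiplet mark whose TRA V gene was named TRAV6-5, TRAV6D-5, TRAV6N-5, TRAV6-6, TRAV6D-6 or TRAV6N-6. The 14 deposited tables held 8139 such cells among 107882 cells with a TRA chain, or 7.54%. These cells carried 3667 distinct TRA chains, a distinct chain being 1 combination of TRAJ gene and CDR3 amino acid sequence under a member V name. The genes were chosen by their measured levels in these tables, in particular the share of TRAV6-5 in 1 tumor, so every level is given as a description and no test was made.

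The study compared Pdcd1fl/fl control mice with Pdcd1 cKO mice, in which the PD-1 gene is deleted by a CD8-Cre transgene in CD8 lineage cells, on the C57BL/6 background. Thymus and spleen were taken at baseline, and thymus and tumor from mice bearing B16-OVA or B16-F10 melanoma. The labels give neither the genotype nor the tumor model of an animal, and the 8 labelled samples are sublibraries that each mix all tables, so no group was formed. Animal and tissue were read from the name of each table. All 7 mice had a thymus table. Mouse-155C and mouse-155A also had a spleen table, and a tumor table came from mouse-164C, mouse-164B, mouse-160C, mouse-160B and mouse-160A. The tables hold TCR chains only, so the CD8+ label could not be checked against marker genes. There are no replicates of a table, and cells of 1 table come from 1 animal. Depth ranged from 2523 to 20511 TRA-bearing cells per table. Exact (Clopper–Pearson) 95% intervals are given in brackets after a share and cover counting error only.

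A barcode in this method is a chain of a first-round well, which marks the sample, followed by a second-round well, a third-round well and a sublibrary. No full barcode of a member cell occurred in more than 1 table. However, 558 member cells, or 6.86%, repeated the TRA chain and the last 3 barcode parts of a cell of another table. Among cells alike in both, the cell with the most transcripts of the chain was not counted as a repeat. At equal transcripts, the cell of the table with more cells of the chain was not counted. The share of repeats was 7.29% among cells with other V genes. By table it ran from 2.82% of member cells in mouse-164C tumor to 18.6% in mouse-155C thymus. Values without these cells are given beside the member shares, the shares of both name groups and the counts of chains by animal.

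An α chain is made in the thymus by joining 1 of many TRAV segments to 1 of many TRAJ segments, with bases trimmed from both ends and others inserted between them. The junction forms the third complementarity-determining region (CDR3), which contacts the peptide presented by MHC. The TRA locus can rearrange again on the same chromosome, and each round joins a V segment further upstream to a J segment further downstream. In C57BL/6 mice a stretch of the V cluster is present in several copies, and genes of the additional copies carry the letters D and N in their names. The 6 genes are thus copies of a TRAV6-5 and a TRAV6-6 segment.

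All 6 genes lie on the plus strand of chromosome 14 in the GRCm39 build, the build given in the labels, and the GENCODE annotation lists each as a functional TR V gene. The last 30 bases of each V exon are shown because they hold the germline start of the CDR3 and the few bases by which the names can be told apart. Capitals mark the 3 positions at which the 6 genes are not all alike.
TRAV6-5 (chr14:53729050-53729079): ctcggctgtgtactactgTgCtctgAgtga
TRAV6D-5 (chr14:53033061-53033090): ctcggctgtgtactactgTgTtctgGgtga
TRAV6N-5 (chr14:53342772-53342801): ctcggctgtgtactactgTgCtctgGgtga
TRAV6-6 (chr14:53754794-53754823): ctcggctgtgtactactgTgCtctgGgtga
TRAV6D-6 (chr14:53059787-53059816): ctcggctgtgtactactgTgCtctgGgtga
TRAV6N-6 (chr14:53370565-53370594): ctcggctgtgtactactgCgCtctgAgtga
TRAV6-6 and TRAV6D-6 differed at 0 of 298 bases of the V exon, so no read of this exon can tell them apart. TRAV6-5 and TRAV6N-5 differed at 1 of 289 bases, the last of the capital positions above. TRAV6N-5 and TRAV6-6 were identical over their last 38 bases, differed at 2 of the last 98 and at 12 of the last 131. TRAV6D-5 and TRAV6N-5 differed at 8 of the last 131 bases, all of them within the last 98.

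Names of 5 of the 6 genes appear in the files, some with a numeric suffix. The authors' pipeline named TRAV6-6 in 4212 cells, TRAV6-5_1 in 2138, TRAV6N-6_1 in 1069, TRAV6N-5 in 557 and TRAV6D-5 in 163. TRAV6D-6, the exact copy of TRAV6-6, was named in no cell, so a cell named TRAV6-6 may use either gene. The first CDR3 residues followed the germline letters. Of 791 distinct chains named TRAV6-5_1, 75.6% began with Cys-Ala-Leu-Ser and none with Cys-Ala-Leu-Gly, whereas of 2054 named TRAV6-6, 82.7% began with Cys-Ala-Leu-Gly and 0.536% with Cys-Ala-Leu-Ser. TRAV6N-5 chains began with Cys-Ala-Leu-Gly in 88.2% of cases, TRAV6D-5 chains with Cys-Val-Leu-Gly in 88.6% and TRAV6N-6_1 chains with Cys-Ala-Leu-Ser in 64.7%. Hence a TRAV6-5 and a TRAV6N-5 chain are distinguished by a base inside the CDR3, which trimming can remove.

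How much V sequence supported a name varied among cells. The alignment most often covered 131 V bases for each TRAV6-5 name and 98 for each TRAV6-6 name. Alignments under 60 bases made up 20.1% of 1895 annotated TRAV6-5_1 cells, 8.77% of 3399 TRAV6-6 cells and 7.41% of 864 TRAV6N-6_1 cells. None of the 350 TRAV6N-5 and 127 TRAV6D-5 cells had one. Over all member names the share was 11.2% of 6635 annotated cells, against 22.9% of 79437 with other V genes. An alignment limited to the last 38 bases cannot separate TRAV6N-5 from TRAV6-6. Among 418 nucleotide chains with at least 2 cells in a table, 33, or 7.89%, appeared under more than 1 member name. Identity to the named V gene was 100% in 95.01% of the annotated member cells. Totals over all member names do not depend on the split between names, and those totals are therefore given first.

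**Figure D1:**
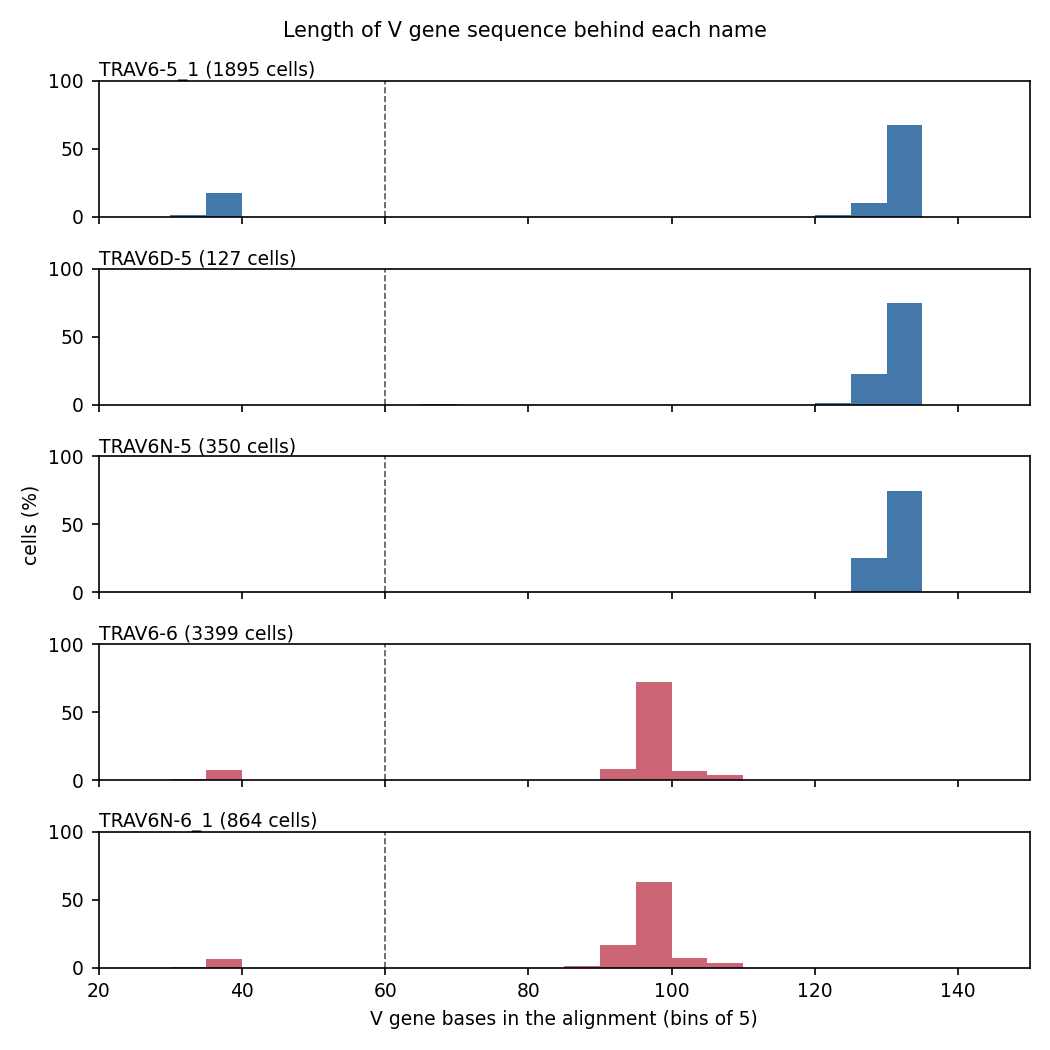
Share of annotated member cells (y axis, %) by the number of V gene bases in the alignment (x axis, bins of 5 bases) for each V name in the files, all tables pooled. The dashed line is at 60 bases. TRAV6-5_1, TRAV6-6 and TRAV6N-6_1 have a second peak below the line (20.1%, 8.77% and 7.41% of cells), and TRAV6D-5 and TRAV6N-5 have none.

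The share of TRA-bearing cells with a member V gene was alike in the thymus tables and varied among tumors. In the 7 thymus tables the lowest share was 6.29%, the median 6.62% and the highest 7.17%. The spleens fell in the same range, at 6.77% (5.90 to 7.72) for mouse-155C and 6.83% (6.20 to 7.50) for mouse-155A. The tumors spread more widely, with mouse-164C at 7.10% (6.75 to 7.46), mouse-164B at 7.51% (6.99 to 8.06), mouse-160B at 7.95% (7.50 to 8.41), mouse-160A at 10.8% (9.64 to 11.97) and mouse-160C at 13.8% (13.02 to 14.7). In the order of the 14 tables, mouse-160C tumor and mouse-160A tumor each stood apart from the next table. From mouse-160B tumor downward, the intervals of neighbours overlapped. Tables further apart did not all overlap, as for mouse-160B tumor and mouse-160C thymus (5.71 to 6.90). The tumor share was higher than that of the thymus in all 5 tumor-bearing mice, by a ratio of 1.10 in mouse-164B to 2.20 in mouse-160C, and both intervals overlapped in mouse-164B and mouse-164C. The spleen over thymus ratio was 0.953 in mouse-155A and 1.02 in mouse-155C. Without the cells that repeat a chain and barcode of another table, the share was 14.7% in mouse-160C tumor, 10.99% in mouse-160A tumor and a median of 6.52% in thymus tables.

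Thymus tables also held a population that takes up part of the total. Cells with TRAV11 or TRAV11D joined to TRAJ18, the invariant chain of NKT cells, made up 5.78% to 10.9% of TRA-bearing cells in thymus tables, against 0.200% to 0.508% for tumors. The spleens had 1.13% (mouse-155C) and 0.406% (mouse-155A). With these invariant NKT-like cells left out, the member share ran from 6.85% to 7.88% over the thymus, with a median of 7.24%, and from 7.11% to 13.9% over the tumors. The tumor of mouse-164C, at 7.11%, then lay inside the thymus range. Only 1 cell carried the TRAV1 and TRAJ33 pair of MAIT-like cells.

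The TRAV6-5 names and the TRAV6-6 names were high in different tumors. In thymus tables the TRAV6-5 names (TRAV6-5_1, TRAV6D-5 and TRAV6N-5) held 1.53% to 2.31% of TRA-bearing cells, with a median of 1.74%. They held 1.957% (1.49 to 2.52) in the spleen of mouse-155C and 1.93% (1.59 to 2.31) in that of mouse-155A. Among tumors the highest was mouse-160C at 10.6% (9.93 to 11.4), followed by mouse-164B at 3.32% (2.97 to 3.70), mouse-164C at 2.48% (2.27 to 2.70), mouse-160B at 2.31% (2.07 to 2.57) and mouse-160A at 0.677% (0.408 to 1.06). Mouse-160C tumor was thus the highest and mouse-160A tumor the lowest of all 14 tables, and neither interval overlapped that of a neighbour in the order. The ratio of tumor over thymus placed mouse-160C at 6.07, mouse-164B at 1.91, mouse-164C at 1.62, mouse-160B at 1.46 and mouse-160A at 0.348. For mouse-160C it rose to 8.42 with chains of at least 2 transcripts and was 1.30 when chains found in more than 1 animal were left out. That filter removes the most frequent chain of this tumor, which is described further on. Without the cells that repeat a chain and barcode of another table, the TRAV6-5 share was 11.6% in mouse-160C tumor and 1.25% to 1.95% in thymus tables, and the mouse-160C ratio was 6.88.

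The TRAV6-6 names (TRAV6-6 and TRAV6N-6_1) showed a different order. They held 4.53% to 5.17% of TRA-bearing cells in thymus tables, with a median of 4.87%. The spleens were at 4.81% (mouse-155C) and 4.90% (mouse-155A). Among tumors the lowest was mouse-160C at 3.18% (2.78 to 3.62), followed by mouse-164B at 4.19% (3.80 to 4.61), mouse-164C at 4.62% (4.34 to 4.92), mouse-160B at 5.64% (5.26 to 6.03) and mouse-160A at 10.1% (8.996 to 11.3). The tumor of mouse-160C, highest for the TRAV6-5 names, was lowest for the TRAV6-6 names. Without the repeated cells the TRAV6-6 share was 3.09% in mouse-160C tumor and 10.4% in mouse-160A tumor. Consequently, TRAV6-5 names made up 77.0% (74.2 to 79.6) of member cells in mouse-160C tumor and 6.29% (3.83 to 9.65) in mouse-160A tumor, against 24.1% to 32.3% in thymus tables. Across the 14 tables, the shares of the name groups had a Spearman rho of -0.55 and a Pearson r of -0.51, as a description, since shares of 1 table add to a fixed total.

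By single name, TRAV6-5_1 was lowest in mouse-160A tumor (0.285%) and highest in mouse-160C tumor (10.4%), while TRAV6-6 was lowest in mouse-160C tumor (2.47%) and highest in mouse-160A tumor (9.87%). TRAV6N-5 reached 1.16% in mouse-164C tumor and at most 0.563% in any other table. The less used TRAV6N-6_1 lay between 0.214% and 1.33%, and TRAV6D-5 between 0.0436% and 0.230%. Neither of these was highest in a tumor: the highest TRAV6N-6_1 share was in mouse-155A thymus and the highest TRAV6D-5 share in mouse-164B thymus.

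**Figure D2:**
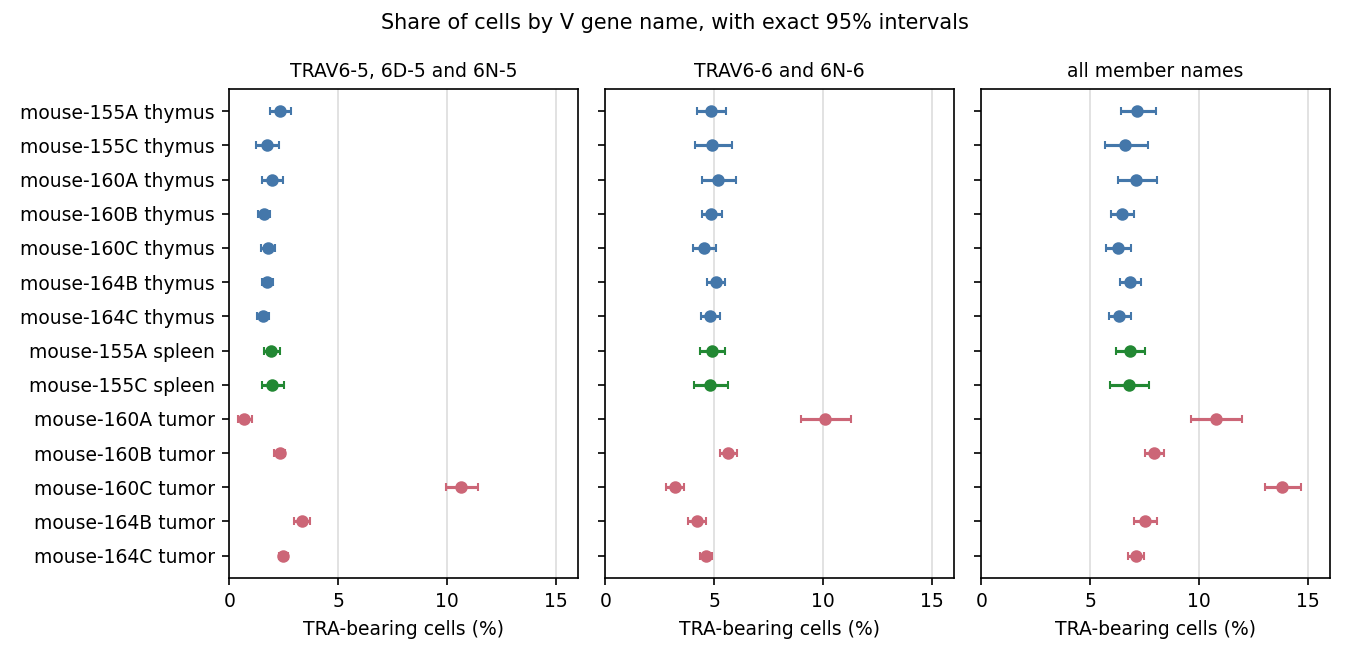
Share of TRA-bearing cells (x axis, %) in each of the 14 tables for the TRAV6-5 names, the TRAV6-6 names and all member names. Points are single tables, coloured by tissue (blue thymus, green spleen, red tumor), and bars are exact 95% intervals. Thymus and spleen points sit together, while mouse-160C tumor lies at 10.6% for TRAV6-5 names and mouse-160A tumor at 10.1% for TRAV6-6 names.

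Counting each distinct TRA chain of a table once removed most of the spread between tables. Distinct member chains made up 7.70% to 9.004% of all distinct TRA chains in thymus tables, with a median of 8.03%. The spleen values were 7.02% (6.01 to 8.14) for mouse-155C and 7.66% (6.91 to 8.45) for mouse-155A. They were 8.59% in mouse-164C tumor, 8.75% in mouse-160B tumor, 8.81% in mouse-160C tumor, 9.06% in mouse-164B tumor and 9.24% (7.13 to 11.7) in mouse-160A tumor. The intervals of all neighbours in this order overlapped. That of mouse-155C spleen still lay below those of mouse-160B tumor (8.16 to 9.37) and mouse-164B tumor (8.19 to 9.99). The tumor value was above that of the thymus in all 5 animals, by a ratio of 1.03 to 1.13, and in each animal both intervals overlapped.

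Repeated chains made up much of the member cells in the 2 tumors with the highest shares. In mouse-160C tumor 952 member cells carried 180 distinct chains, or 5.29 cells per chain, against 3.18 for other V genes in the same table. In mouse-160A tumor the 302 member cells carried 60 distinct chains, or 5.03 per chain, against 4.25. In mouse-160B, mouse-164B and mouse-164C tumors there were 1.48, 1.98 and 1.46 cells per member chain, each below the value for other V genes. The single most frequent member chain held 60.8% (57.6 to 63.9) of member cells in mouse-160C tumor, 48.3% (42.6 to 54.1) in mouse-160A tumor and 25.5% in mouse-164B tumor. In mouse-164C and mouse-160B tumors it held 15.4% and 2.15%, and it was the same TRAJ15 chain in both. Of its 24 cells in mouse-160B tumor, 13 shared the last 3 barcode parts with a mouse-164C tumor barcode of this chain. Without the most frequent member chain of each table, the member share of cells was 5.71% to 7.79% in the 5 tumors and 6.14% to 7.01% in the 7 thymus tables. The tumor was then below its own thymus in mouse-160A (5.86% against 7.01%), mouse-160C (5.92% against 6.19%), mouse-164B (5.71% against 6.67%) and mouse-164C (6.07% against 6.14%). In mouse-160B it was above (7.79% against 6.26%). Expanded chains of other V genes stayed in the total, so this removal can only lower the share.

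**Figure D3:**
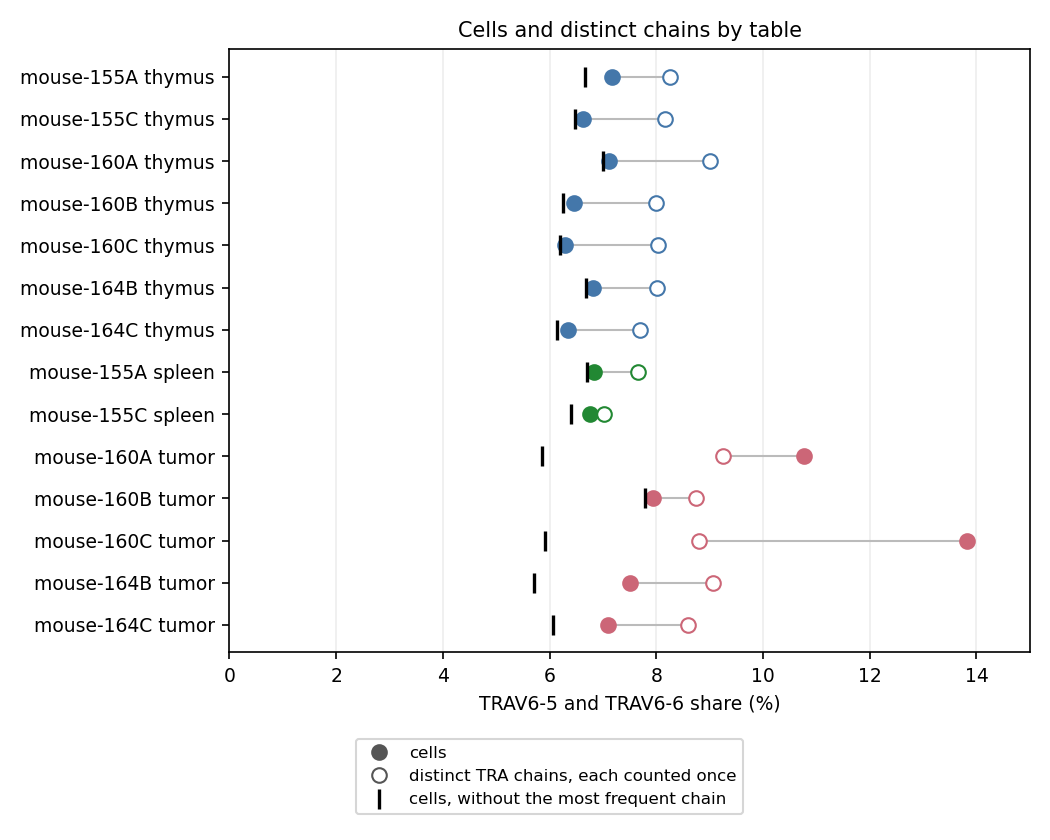
Member share by table (x axis, %) counted over cells (filled points), over distinct TRA chains (open points) and over cells without the most frequent member chain (black ticks), coloured by tissue as blue thymus, green spleen and red tumor. Distinct-chain shares stay between 7.02% and 9.24% in all 14 tables, and the cell share of mouse-160C tumor moves from 13.8% to 5.92% without 1 chain.

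Repeated clonotypes, here pairs of TRA and TRB CDR3 sequences found in at least 2 cells of a table, held at most 8.20% of the paired member cells of a thymus table. No paired member cell belonged to one in 5 of the 7 thymus tables, where a count of 0 allows a share of up to 3.66% of 82 paired member cells (mouse-155C) to 0.771% of 389 (mouse-164C). In mouse-160B thymus 31 of 378 did, or 8.20% (5.64 to 11.4), and in mouse-164B thymus 14 of 517, or 2.71%. Among cells with other V genes the thymus tables ran from 0.360% to 5.28%, with 5.28% in mouse-160B and 2.59% in mouse-164B. In spleens it was 12 of 96 member cells, or 12.5%, in mouse-155C and 2 of 219, or 0.913%, in mouse-155A, against 4.82% and 0.741% of cells with other V genes. In tumors the share was 16.9% in mouse-164C, 21.1% in mouse-160B, 46.7% in mouse-164B, and it was highest in mouse-160C at 81.4% (78.0 to 84.4) and mouse-160A at 85.5% (80.1 to 89.9). Among cells with other V genes of the same tumors it was 23.1%, 21.9%, 50.9%, 68.7% (67.0 to 70.3) and 78.7% (76.6 to 80.7). The interval for members was above that for other V genes in mouse-160C tumor and in mouse-155C spleen (6.63 to 20.8 against 3.72 to 6.14). It was below that for other V genes in mouse-164C tumor and in mouse-160A thymus. In the latter, 0 of 156 paired member cells stood against 3.32% (2.58 to 4.20) of cells with other V genes.

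TRAJ usage was examined next, since the TRAJ number gives a position in the locus, with high numbers on the V side and low numbers on the side of the constant gene. TRAJ31 and higher numbers, called upstream here, were used by 40.3% to 44.9% of the distinct member chains of a thymus table, with a median of 42.8%. For chains with other V genes the range was 41.8% to 47.1%, with a median of 44.7%. The member value lay below the value of other V genes in 5 of 7 thymus tables, 3 of 5 tumor tables and in both spleen tables. Tumor tables gave a median of 44.7% for members and 45.2% for other V genes.

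The member names differed among themselves, and so did single names of other V genes. Among V names with at least 100 distinct thymus chains, the upstream share ran from 17.1% (TRAV4D-3) to 95.2% (TRAV19). Over the thymus tables, upstream TRAJ genes were used by 49.9% (47.3 to 52.5) of 1481 distinct TRAV6-6 chains and by 22.2% (18.3 to 26.5) of 410 TRAV6N-6 chains. TRAV6-6 lies 640 kb before the TRAJ58 gene and TRAV6N-6 lies 1024 kb before it. TRAV6-5, at 666 kb, gave 41.7% (36.9 to 46.6) of 417 chains, and TRAV6N-5, at 1052 kb, gave 28.6% (20.7 to 37.6) of 119. TRAV6D-5, the most distant named gene at 1362 kb, gave 41.4% (29.8 to 53.8) of only 70 chains. In each thymus table TRAV6N-6 stayed at or under 29.7% and TRAV6-6 at or above 43.8%, so the tables did not overlap for this pair. With V alignments of at least 60 bases alone, the values were 49.8% for TRAV6-6, 22.0% for TRAV6N-6, 43.5% for TRAV6-5 and 30.6% for TRAV6N-5. For TRAV6-5 and TRAV6N-5 a longer alignment adds no base that separates them, since their only difference lies inside the CDR3. Since TRAV6D-6, at 1335 kb, is identical to TRAV6-6, its chains are contained in the TRAV6-6 value and cannot be told apart from it. Among 56 V names with at least 100 distinct thymus chains, TRAV6N-6 had the 9th lowest upstream share, TRAV6N-5 the 20th, TRAV6-5 the 36th and TRAV6-6 the 40th.

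**Figure D4:**
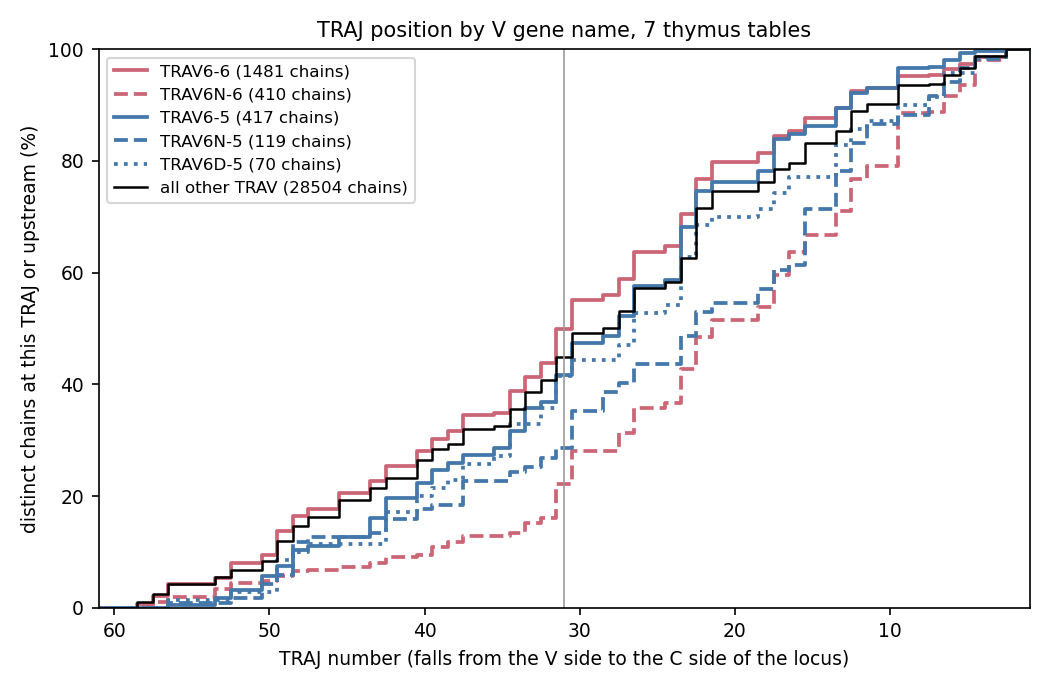
Cumulative share of distinct TRA chains (y axis, %) using the given TRAJ number or one further upstream (x axis, from the V side at left to the constant-gene side at right), for each member name and all other TRAV names, 7 thymus tables pooled. The vertical line marks TRAJ31, where TRAV6-6 stands at 49.9% and TRAV6N-6 at 22.2%.

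The 5 TRAJ genes with the most distinct member chains in thymus tables were TRAJ23, TRAJ22, TRAJ31, TRAJ30 and TRAJ26, all within chr14:54425352-54434764. TRAJ23 was joined in 162 of 2497 member chains, with a median over tables of 6.03% (range 4.24% to 9.72%), against 4.25% (3.30% to 4.57%) for other V genes. TRAJ22 went the other way, with a median of 5.65% (4.86% to 7.28%) in members and 9.14% (8.08% to 10.5%) in other chains, ranges that did not overlap. In the tumor tables TRAJ22 was used by 5.90% of distinct member chains and 6.46% of others, TRAJ23 by 6.49% and 4.52%. In the spleen tables neither difference had the same direction, with TRAJ22 at 7.24% of 525 member chains and 7.08% of others and TRAJ23 at 3.81% and 4.08%. For TRAJ31 the thymus medians were 5.56% and 4.14%, for TRAJ30 6.02% and 4.39% and for TRAJ26 4.57% and 4.30%, with overlapping ranges.

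Junctions of member chains were like those of other chains in median length and differed slightly in mean length and inserted bases. The median CDR3 length was 14 residues in all 14 tables for members and other chains alike. The mean was 13.8 to 14.2 residues for members and 13.6 to 13.8 for others, and in every table the member mean was the longer one. When a nucleotide CDR3 was divided into bases matching the germline V end, bases matching the germline TRAJ and the rest, the median of the rest, counted as inserted, was 3 bases for members and others in thymus tables. No inserted base was found in 10.3% of 2161 member chains and 13.2% of 21957 other chains of thymus tables, with table ranges of 9.12% to 11.9% and 12.7% to 14.6%. A base inserted by chance alike the germline is counted as germline in this division.

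Member α chains were paired with many β chains. Among the 5161 member cells with a TRB chain there were 3995 clonotypes with 3811 distinct TRB CDR3 sequences, under 22 TRBV names. TRBV29 and TRBV13-2 were the leading partners in thymus tables, with 178 and 177 of 1914 clonotypes. TRBV29 had a median over tables of 8.54% (5.21% to 12.5%), against 7.05% (5.96% to 8.19%) for other V genes. TRBV13-2 had a median of 9.35% (6.41% to 11.05%), against 13.04% (11.9% to 14.6%) for other V genes. The other V genes here include the invariant NKT-like cells, whose receptors are known for TRBV13-2 use. With these left out the TRBV13-2 median of other V genes was 9.80% (9.13% to 10.9%), a range inside that of the members, and the TRBV29 median was 6.46%. In tumor tables the TRBV13-2 medians were 9.03% (7.58% to 12.8%) and 10.5% (8.92% to 11.7%), and the ranges overlapped. TRBV12-1, TRBV13-3 and TRBV13-1 made up the rest of the leading 5, with thymus medians of 7.71%, 7.05% and 7.46% and overlapping ranges. The leading TRBJ partners were TRBJ2-7, TRBJ2-1, TRBJ2-5, TRBJ1-1 and TRBJ2-3, whose thymus ranges overlapped those of other V genes.

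The most frequent member clonotype of a table reached at least 5 cells in 8 tables, which hold 7 different clonotypes. The nucleotide CDR3 of their TRA chains is shown because it identifies the leading clonotypes and marks whether cells of different tables share a chain. Capitals mark the bases that match neither the germline V nor the germline TRAJ. Each line gives the V and TRAJ names and the table.
TRAV6-5_1 with TRAJ13, mouse-160C tumor: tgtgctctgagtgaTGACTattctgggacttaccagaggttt
TRAV6-5_1 with TRAJ23, mouse-164B tumor and thymus: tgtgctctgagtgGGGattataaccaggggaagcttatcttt
TRAV6-6 with TRAJ52, mouse-160A tumor: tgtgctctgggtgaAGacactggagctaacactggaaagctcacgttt
TRAV6N-5 or TRAV6-6 with TRAJ15, mouse-164C tumor: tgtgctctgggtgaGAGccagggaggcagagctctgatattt
TRAV6-6 with TRAJ39, mouse-160B tumor: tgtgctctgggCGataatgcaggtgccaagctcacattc
TRAV6N-6_1 with TRAJ4, mouse-160B thymus: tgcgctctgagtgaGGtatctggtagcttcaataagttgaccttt
TRAV6-6 with TRAJ49, mouse-155C spleen: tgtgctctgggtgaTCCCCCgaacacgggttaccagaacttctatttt
The inserted part was 2 to 6 bases long. Ahead of the inserted bases the chains carry the germline letters shown for their V genes, ctgag in the TRAV6-5_1 chains, ctggg in the TRAV6-6 chains and the start tgcg in the TRAV6N-6_1 chain.

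The TRAJ13 chain made up most TRAV6-5 cells of mouse-160C tumor. It was found in 579 of the 733 cells, or 8.41% of all TRA-bearing cells of the table. Its clonotype with a TRBV2 and TRBJ2-3 chain held 318 cells, which is 53.3% (49.2 to 57.3) of paired member cells and 8.46% (7.59 to 9.40) of all paired cells of the table. A further 84 cells paired the TRA chain with another TRB chain, with 46 different TRB sequences in all, and 177 had no TRB chain. The median was 4 TRA transcripts with the leading TRB chain and 2.5 with another. The leading TRB chain was in turn found with another TRA chain in 16 cells and with none in 117. A second expanded chain of this tumor joined TRAV6-5_1 to TRAJ50 and was found in 94 cells, 60 of them with 1 TRB chain. Its junction, with inserted bases in capitals, is shown because it recurs below.
TRAV6-5_1 with TRAJ50, mouse-160C tumor: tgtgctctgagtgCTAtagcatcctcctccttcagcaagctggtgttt

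In mouse-160A tumor, the TRAJ52 clonotype held 107 of 214 paired member cells, or 50% (43.1 to 56.9), and the next clonotype 53. In mouse-164B tumor, the TRAJ23 clonotype held 104 cells, or 23.6% (19.7 to 27.8) of paired member cells, and the next 14. In mouse-164C tumor, the TRAJ15 clonotype held 72 cells, or 7.56% (5.96 to 9.42), and the next 60. The TRAJ39 clonotype of mouse-160B tumor was the smallest, with 19 of 692 cells, or 2.75%. Each of these tumor clonotypes was found in all 8 sublibraries. Among thymus tables, the TRAJ4 clonotype held 14 of 378 cells in mouse-160B, and the TRAJ23 clonotype held 8 of 517 in mouse-164B. In mouse-155C spleen, the TRAJ49 clonotype held 6 of 96.

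The TRB chains of the 5 tumor clonotypes are shown to complete the receptors. Each had a single TRB nucleotide sequence in the annotated cells, given here in lower case without a division into segments.
TRBV2 with TRBJ2-3, partner of TRAJ13, mouse-160C tumor: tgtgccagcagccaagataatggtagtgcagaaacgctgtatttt
TRBV13-1_1 with TRBJ1-4, partner of TRAJ52, mouse-160A tumor: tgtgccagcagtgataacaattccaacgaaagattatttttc
TRBV12-1 with TRBJ2-5, partner of TRAJ23, mouse-164B tumor: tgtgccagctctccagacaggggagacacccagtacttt
TRBV12-2 with TRBJ2-5, partner of TRAJ15, mouse-164C tumor: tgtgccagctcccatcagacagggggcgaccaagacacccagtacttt
TRBV13-2 with TRBJ2-5, partner of TRAJ39, mouse-160B tumor: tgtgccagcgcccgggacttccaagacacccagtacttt
The 5 receptors thus used 5 different TRAJ genes and 5 different TRBV names, while 3 of them shared TRBJ2-5.

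The TRAJ15 chain of mouse-164C tumor shows how a clone was divided between the TRAV6-5 and TRAV6-6 names. Its leading clonotype was named TRAV6N-5 in 63 cells and TRAV6-6 in 9, with a single nucleotide sequence. Over all tables, the 108 annotated cells named TRAV6N-5 had V alignments of 131 or 132 bases, and the 27 named TRAV6-6 had alignments of 38 bases. All annotated cells of this chain named TRAV6-6 thus had the length over which both genes are identical. The TRAJ13 chain was named TRAV6-5_1 in all 704 cells, although 143 of 696 annotated ones had alignments under 60 bases.

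Several member chains were found in many animals. Of the distinct chains, 2798 occurred in 1 animal, 564 in 2, 187 in 3 and 11 in all 7. No such count is given here for chains with other V genes. With all chains of more than 1 animal left out, the median member part of distinct chains went from 8.03% to 8.52% in thymus tables. In tumor tables it went from 8.81% to 9.20%. Among the 11 chains of all 7 animals, the 5 with the most cells were the TRAJ13, TRAJ15, TRAJ23, TRAJ52 and TRAJ50 chains named above. Each was an expanded chain of 1 tumor, which a choice by cell number favours. The TRAJ13 chain was counted in all 14 tables, with 1 to 22 cells in each table other than mouse-160C tumor, or 0.0293% to 0.542% of TRA-bearing cells. All 696 annotated cells had the same nucleotide sequence. Of its 118 cells in other animals, 117 had 1 transcript of the chain and 10 had a TRB chain, in no case the leading one. The last 3 barcode parts of 70 of these 118 cells, or 59.3%, were also those of a mouse-160C tumor barcode with this chain. The same was true of 1.595% of 94214 cells of other animals with other chains.

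The other chains gave like values. Cells of other animals shared these barcode parts in 53 of 80 cases (66.2%) for the TRAJ15 chain, 20 of 29 (69.0%) for TRAJ23, 29 of 57 (50.9%) for TRAJ52 and 6 of 17 (35.3%) for TRAJ50. Among cells with other chains the share was at most 0.888% for each of the 4. The leading TRB chain was found in 1 of these cells for TRAJ52 and in none for TRAJ15, TRAJ23 and TRAJ50. All cells of the TRAJ23 and TRAJ50 chains in other animals had 1 transcript. With the cells that repeat a chain and barcode of another table left out, 2910 distinct member chains occurred in 1 animal, 472 in 2 and 7 in all 7. The source of the remaining cells was not tested.

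**Figure D5:**
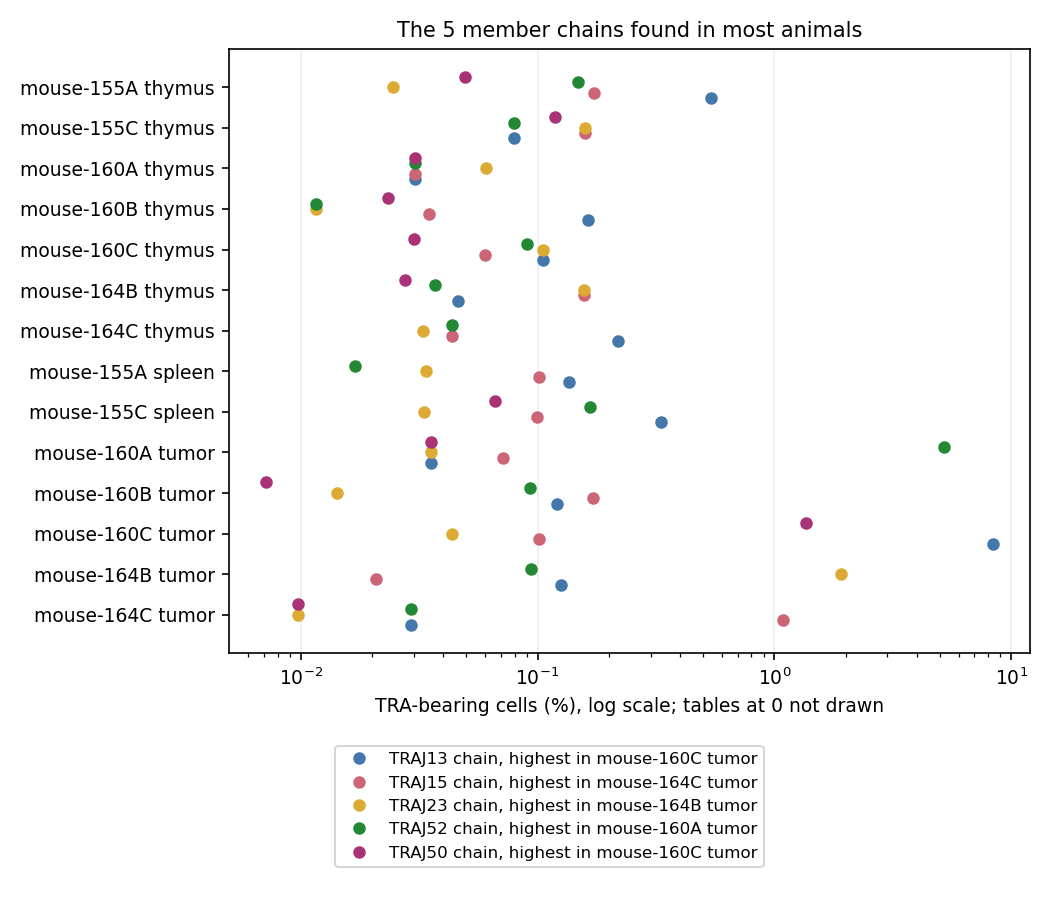
Share of TRA-bearing cells (x axis, %, log scale) of the 5 member chains found in most animals, in each of the 14 tables, coloured by chain and labelled by TRAJ gene, with tables at 0 not drawn. Each chain has 1 tumor table where it lies between 1.09% and 8.41%, and lies at or below 0.542% in every other table.

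One question of the study was the sharing of clonotypes between the thymus and a peripheral tissue of 1 mouse. The study defined a clonotype by the nucleotide CDR3 sequences of both chains, whereas amino acid sequences are used here. Of 1914 paired member clonotypes in thymus tables and 2119 in second-tissue tables, summed over animals, 26 were found in both tissues of an animal. They numbered 15 in mouse-164B, 6 in mouse-160B, 2 in mouse-160A, 1 each in mouse-155A, mouse-155C and mouse-160C, and 0 in mouse-164C, whose tables had 389 and 805 member clonotypes. Over all V genes, 170 clonotypes were shared in this way, 70 of them in mouse-164B. Clonotypes with other V genes, summed over animals, numbered 26700 in thymus tables, 20403 in tumor tables and 4328 in spleen tables. The 26 clonotypes held 50 of 1949 paired member cells in thymus tables and 200 of 3212 in the second tissue. None of the 26 occurred in another animal, and none had cells with common last 3 barcode parts in both tissues. In the 18 for which TRA nucleotide sequences were known on both sides, all 18 had one in common. With clonotypes defined by the nucleotide sequences of both chains, 18 were shared, a count that leaves out unannotated cells.

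Most shared clonotypes were larger outside the thymus. The second tissue had more cells in 16, the thymus in 1, and cell numbers were equal in 9. No such count is given here for other V genes. In 20 of the 26 the thymus held a single cell. The 6 clonotypes with at least 2 cells on each side include the TRAJ23 and TRAJ4 clonotypes shown above. The other 4 TRA junctions are shown, inserted bases in capitals, since each was read in both tissues.
TRAV6-6 with TRAJ12, TRBV29, mouse-164B: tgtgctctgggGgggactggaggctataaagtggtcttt
TRAV6N-6_1 or, in tumor only, TRAV6-6 with TRAJ26, TRBV13-2, mouse-164B: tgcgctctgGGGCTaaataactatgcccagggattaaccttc
TRAV6N-6_1 with TRAJ27, TRBV16, mouse-164B: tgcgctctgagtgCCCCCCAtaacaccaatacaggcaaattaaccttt
TRAV6-6 with TRAJ30, TRBV29, mouse-160B: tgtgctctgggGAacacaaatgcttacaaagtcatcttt
The TRAJ23 clonotype of mouse-164B was the largest, with 8 thymus and 104 tumor cells. The TRAJ12 clonotype had 2 thymus and 14 tumor cells, the TRAJ26 clonotype 2 and 13, the TRAJ27 clonotype 2 and 11 and the TRAJ30 clonotype 2 and 6. The exception in direction was the TRAJ4 clonotype of mouse-160B, with 14 thymus and 2 tumor cells. Of the 5 leading tumor clonotypes, that of mouse-164B was among the 26 and the other 4 were not. With at least 2 transcripts required for the TRA chain, 11 clonotypes were shared.

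Many member chains were supported by few transcripts. A single transcript backed the chain in 54.0% to 77.8% of member cells of thymus tables and in 48.3% to 71.7% of cells with other V genes. In all 7 thymus tables and both spleen tables the member value was the higher one, also with invariant NKT-like cells left out of the other V genes. In tumors it was 44.4% (mouse-160A) to 62.2% (mouse-160B) for members, below the other V genes in mouse-160A and mouse-160C and above them in mouse-160B, mouse-164B and mouse-164C. A TRB chain was present in 47.1% to 70.9% of member cells and in 45.7% to 69.7% of others. Members were also found as the second TRA chain of a cell, in 1098 of 16613 such chains, or 6.61%. Before multiplets were left out there were 9896 member cells, and 1757 carried the mark. By table the mark was on 3.32% to 13.9% of member cells of the thymus. In tumors it was on 20.8% to 27.4% of member cells, and on 21.5% to 26.7% of cells with other V genes.

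Out of 27 other V names with a median share of at least 1%, the 3 with the highest Spearman rho with the TRAV6-5 share over the 14 tables were TRAV8D-2_1 (rho 0.60, Pearson r 0.98), TRAV10 (rho 0.56, r 0.03) and TRAV9-2 (rho 0.54, r 0.74). The share of TRAV8D-2_1 ran from 1.28% to 9.08%, and its highest table was mouse-160C tumor, as for TRAV6-5. Without the 2 tables farthest from the median of TRAV6-5, the rho values were 0.37, 0.78 and 0.73. The points share libraries, depth and a fixed total, and no p-value was computed.

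The remaining TRAV6 genes were less used. Their 8 names were found in 3850 cells, with a median share over tables of 3.51% and a range of 1.57% to 4.64%. The highest total was in mouse-155C spleen and not in a tumor. TRAV6-3_1 was the most frequent of them with 885 cells (0.392% to 1.39% by table), followed by TRAV6-1 with 752 and TRAV6-2_1 with 609. TRAV6-7-DV9 was the least frequent with 99 cells. In thymus tables TRAV6-1, TRAV6-2, TRAV6-3 and TRAV6-4 used upstream TRAJ genes in 29.4% to 33.2% of distinct chains. These values were below the 41.7% of TRAV6-5, the 41.4% of TRAV6D-5 and the 49.9% of TRAV6-6. They were above the 22.2% of TRAV6N-6 and the 28.6% of TRAV6N-5.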

How the data were processed

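Libraries were made with the Evercode TCR kit from CD8+ T cells isolated by magnetic kits, and the authors assembled and named the chains with the Parse Biosciences pipeline. The sources used here give neither its version nor its V(D)J reference. Per barcode, the deposited tables hold a transcript count for each chain and a multiplet mark. The deposited annotation tables give nucleotide CDR3 sequences, the V alignment and its identity in percent. For 3 tables the annotation held here covers only 92.4% (mouse-160B thymus), 41.3% (mouse-164B thymus) and 29.5% (mouse-164C tumor) of member cells. Doublets were treated as marked by that pipeline.

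Cells with a mark were left out and member names were matched without their numeric suffix. Shares carry exact (Clopper–Pearson) 95% intervals, and where 0 cells were found the upper limit is 3 cells of the total. No p-value was computed, because the labels give no groups, cells are not replicates and the genes were chosen for their level. Members, lists and rules were chosen with earlier results of these data known. Named TRAJ, TRBV and TRBJ genes are the 5 with the most distinct member chains in thymus tables. Named clonotypes are the most frequent of each table with 5 cells or more and those with 2 cells or more in both tissues of an animal. Named chains are the 5 found in most animals, then by cells. Germline V and TRAJ segments were read from GRCm39 with GENCODE annotation. The division of the CDR3 and the intervals were tested on simulated data. Analyses used Python 3.11.15, pandas 2.3.3, SciPy 1.17.1 and matplotlib 3.10.9.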

Additional observations from a re-analysis of the deposited data

How the results depend on the processing

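The 9 summary values (6.62% and 7.95% for the thymus and tumor medians of the member share, 23.6% for the median part of the leading clonotype in tumors and the others given above) were recomputed under other settings, 206 values in all, of which 179 stayed within the 95% interval of the table that gave the median, the interval of the ratio, or 1.5 times the count. With at least 2 transcripts per TRA chain, the tumor median of the member share was 7.36%, the distinct-chain shares 6.93% in thymus and 7.46% in tumor tables, the part of the leading clonotype 30.04%, the mouse-160C ratio 8.42 and the shared clonotypes 11. With only barcodes that carry both chains the ratio was 8.04. Weighting by transcripts gave member shares of 5.49% (thymus) and 6.70% (tumor) and a leading part of 30.7%. Without chains of more than 1 animal the shares were 8.25% and 9.01%, the ratio 1.30, the leading part 4.06% and the shared clonotypes 4. This setting removes the TRA chains of the leading member clonotypes of all 5 tumors. Of these chains, 4 were found in 7 animals and the TRAJ39 chain of mouse-160B tumor in 5. Leaving out 1 animal or sublibrary at a time put the tumor median of the member share between 7.73% and 9.35%. The leading part then lay between 15.6% (without mouse-160A or mouse-160C) and 36.8% (without mouse-160B or mouse-164C). Only V alignments of 60 bases or more, a setting added after the data were seen, gave shares of 7.80% and 9.25%, a distinct-chain share of 9.23% in thymus tables and 17 shared clonotypes, where unannotated cells are lost too. Alignments under 60 bases, which this setting removes, made up 11.2% of annotated member cells and 22.9% of annotated cells with other V genes. The cause of the shifts was not tested. Also added later were the settings without invariant NKT-like cells and without cells that repeat a chain and barcode of another table, and no summary value run under them left its range (5 of the 9 for the NKT-like setting, all 9 for the other). The part of TRAV6-5 names in thymus member cells and the upstream TRAJ part stayed within their ranges under all settings run. Weighting by transcripts does not apply to distinct chains or shared clonotypes, nucleotide sequences do not change cell shares, and barcodes with both chains are already the base of clonotypes. Tissues of 1 animal were set side by side as ratios, with no test. Depth limits the clonotype counts: a clonotype seen in 1 cell cannot be told from a larger one, and in most tables over 50% of member chains rest on 1 transcript.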
